A study of Mus musculus with 24 samples.

Results

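Lungs of TGF-β1 transgenic (TG) mice from 3 inbred strains named fibrosis-prone in the series design (A/J, AKR/J and C57BL/6J, 8 mice) were compared with those of 3 strains named fibrosis-resistant (129, labelled S129, BALB/cJ and C3H, 9 mice). The 17 mice were taken by their titles from the 24 of the series, and the other 7 were wild-type (WT) mice, 4 of prone and 3 of resistant strains. There were 3 TG mice and 1 WT mouse in each strain, except for C57BL/6J with 2 of each. All mice, WT included, drank doxycycline for 2 weeks, which in TG mice switched on the TGF-β1 transgene, and total RNA of the right lung lobe was hybridised to whole-transcript arrays. Neither the promoter of the transgene nor the age or litter of the mice is given in the sources used here. The samples also carry a numeric code for fibrosis whose key would make 129, BALB/cJ and C3H the prone set. The series design was followed. Under that code the differences between the 2 sets would change sign, while the values of single strains would not, and the rule on single strains used below would apply to other strains.

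TGF-β1 is a secreted cytokine that, once released from its latent complex by integrins, signals through serine/threonine kinase receptors to SMAD transcription factors. In the lung it turns fibroblasts into matrix-producing cells, drives collagen deposition and restrains epithelial growth. Inbred strains differ in how much scar forms under the same stimulus. Genes that differ between prone and resistant strains under TGF-β1 are described here, and whether any of them modifies fibrosis was not tested.

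Values are log2 intensities of 13499 genes, each read from 1 probe set, and differences are on the log2 scale with the SE of the limma fit. For each gene the mean of the 3 resistant strain means was subtracted from the mean of the 3 prone strain means, so each strain counted equally. A gene was called at a limma adjusted p (Benjamini and Hochberg's method over all genes) under 0.05. A gene is said to hold in all 3 prone strains where A/J, AKR/J and C57BL/6J, each set against the mean of the 3 resistant strains, all passed this threshold in the same direction. These 3 comparisons share the 9 resistant mice and are therefore not independent of each other. Mice were the unit of replication, so a call speaks of these 6 strains. With the 6 strain means as the unit, limma called 0 genes (518 at an unadjusted p under 0.05), and with strain as a random block it called 1, Vipr2 (adjusted p = 0.00055; 927 genes at an unadjusted p under 0.05).

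Medians of the 24 arrays were 7.759 to 7.835, and the correlation across genes between 2 replicate mice was 0.9916 to 0.9972. The strain labels were checked on H2-Ea, an MHC class II chain that strains of the b haplotype do not make. H2-Ea differed by -4.34 ± 0.11 in C57BL/6J, which has that haplotype, and by 2.13 and 2.21 in A/J and AKR/J, against a resistant mean that includes 129, also of that haplotype. The first principal component of the 17 TG lungs held 25.3% of the variance and did not follow the prone and resistant names. On it A/J lay at 10.1 to 15.3 and C57BL/6J at 18.2 to 21.4, whereas AKR/J lay at -13.8 to -8.7, beyond or among the resistant mice at -9.7 to -0.6.

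**Figure D1:**
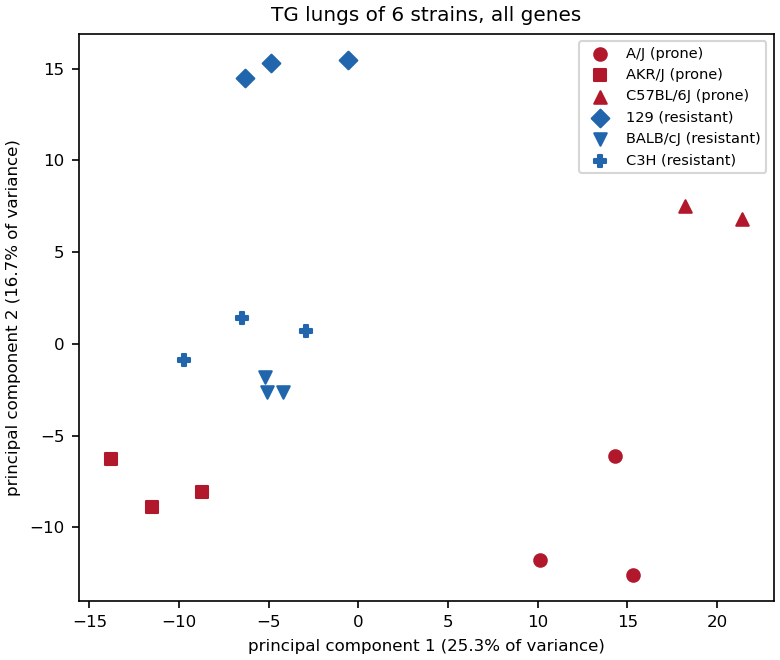
First against second principal component over all genes, each point a TG mouse, with axes in component units and the share of variance in brackets, prone strains in red and resistant strains in blue. A/J and C57BL/6J sit at 10.1 and above on the first component, and AKR/J sits at -8.7 and below, on the side of the resistant strains.

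Between the sets of TG strains limma called 1503 of 13499 genes (11.1%), 870 higher (6.44%) and 633 lower (4.69%) in the prone set, and 10 of them (0.0741%) differed at least 2-fold. Taken alone, A/J differed from the resistant mean in 2169 genes (16.1%; 9.33% higher and 6.73% lower). C57BL/6J differed in 1992 genes (14.8%; 7.87% higher and 6.88% lower) and AKR/J in 956 (7.08%; 3.58% higher and 3.50% lower). In 49 genes (0.363%) the difference held in all 3 prone strains, with 16 higher (0.119%) and 33 lower (0.244%). The 49 differences between the sets ranged from 0.20 to 2.86 in size with a median of 0.40, and 6 reached 2-fold. In 32 of the 49, every prone strain mean also lay on the same side of every resistant strain mean, and in the other 17 at least 1 resistant strain reached the prone range. With AKR/J left out, 692 genes held in the other 2 prone strains, against 146 without A/J and 167 without C57BL/6J. The AKR/J mice differed from the mean of the other 2 prone strains in 2993 genes (22.2%; 10.5% higher and 11.6% lower).

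**Figure D2:**
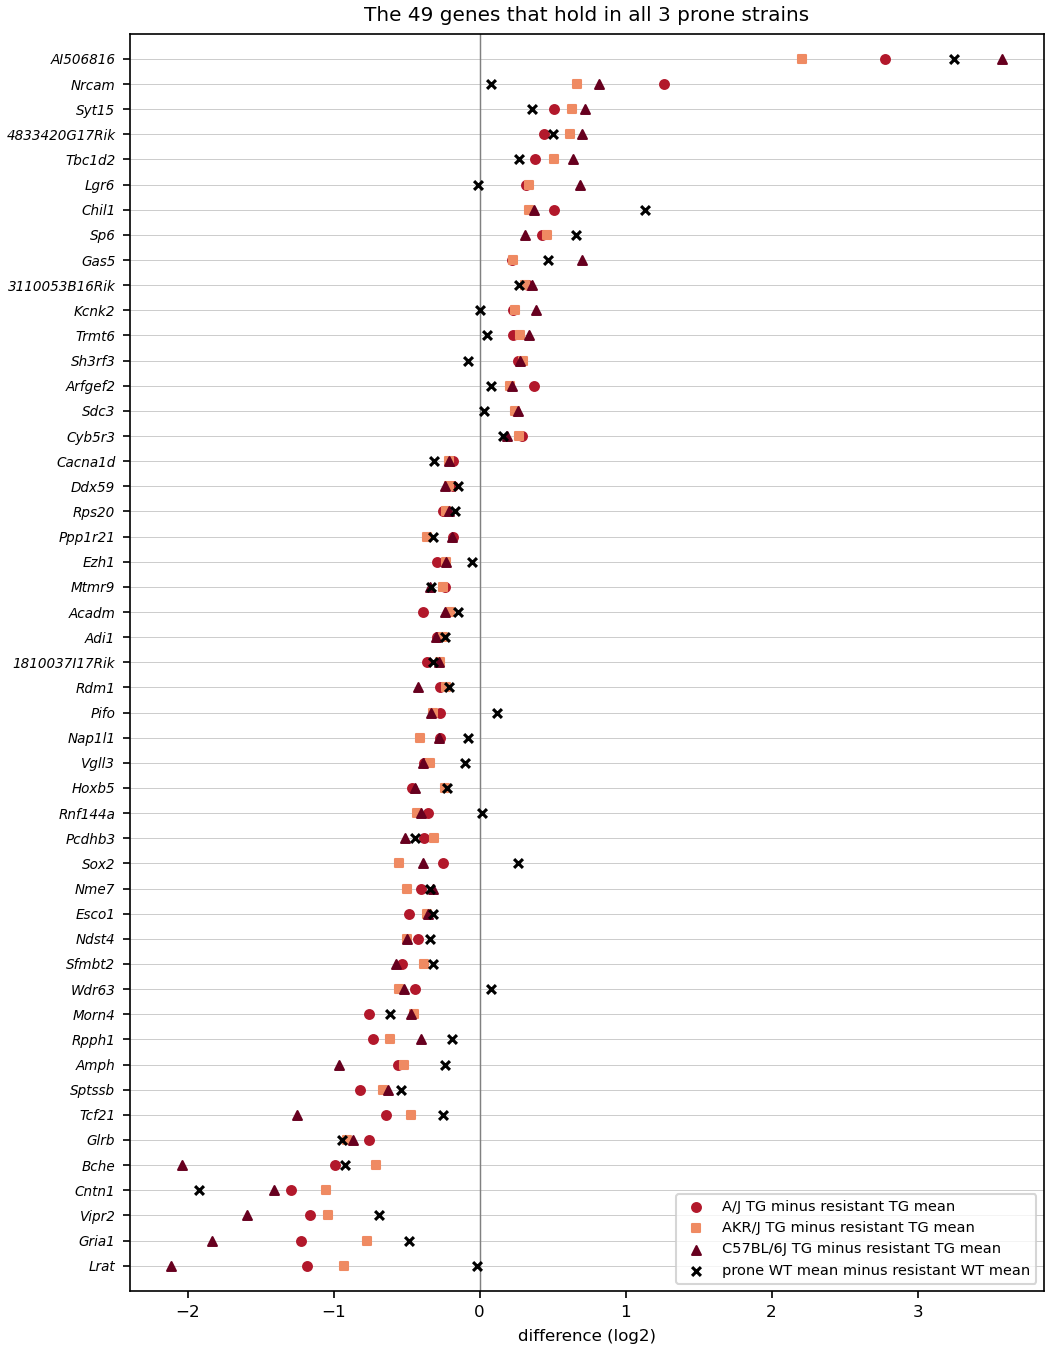
The 49 genes that held in all 3 prone strains, on the vertical axis, with differences on the log2 scale on the horizontal axis. Coloured marks are each prone TG strain minus the mean of the 3 resistant TG strains, and crosses are the prone minus resistant difference in WT mice. All coloured marks of a gene lie on the same side of 0 by the rule of choice, while the crosses of some genes, such as Lrat and Nrcam, lie near 0.

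Lrat, the enzyme that esterifies retinol for storage and marks retinoid-storing stromal cells, was the gene with the largest downward difference that held in every prone strain. In TG mice it measured 10.97, 10.34 and 10.74 in A/J, 10.58, 11.19 and 11.02 in AKR/J, and 9.25 and 10.25 in C57BL/6J. Resistant TG mice measured 11.73, 12.45 and 11.77 in 129, 11.81, 12.02 and 11.24 in BALB/cJ, and 11.91, 11.81 and 12.02 in C3H. All 8 prone mice lay below all 9 resistant mice, and C57BL/6J was lowest. The difference was -1.18 ± 0.21 in A/J, -0.93 ± 0.21 in AKR/J and -2.11 ± 0.25 in C57BL/6J (limma adjusted p = 0.001, 0.015 and 2.4e-05). WT mice showed no such order: 12.21 in A/J, 12.47 in AKR/J, 11.32 and 11.52 in C57BL/6J, 12.31 in 129, 11.70 in BALB/cJ and 12.14 in C3H. The WT difference was -0.02 ± 0.25 (95% interval -0.54 to 0.50), and it differed from the TG difference by -1.39 ± 0.29 (limma adjusted p = 0.043).

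Vipr2, a receptor for vasoactive intestinal peptide on smooth muscle and immune cells, was lower in all 3 prone strains, most in C57BL/6J. The TG values were 8.90, 9.13 and 8.81 in A/J, 8.91, 9.05 and 9.26 in AKR/J, and 8.23 and 8.81 in C57BL/6J. In the resistant strains they were 10.22, 10.31 and 10.21 in 129, 9.99, 9.93 and 9.75 in BALB/cJ, and 10.12, 10.28 and 10.19 in C3H. The sets did not overlap, and each prone strain passed the test on its own, by -1.16 ± 0.10 in A/J, -1.04 ± 0.10 in AKR/J and -1.59 ± 0.12 in C57BL/6J (limma adjusted p = 1.2e-06, 2.7e-05 and 3.3e-07). Among WT mice, A/J (9.50) and AKR/J (9.19) lay below 129 (10.70), BALB/cJ (10.03) and C3H (10.22), but C57BL/6J (10.28 and 10.12) lay among them. The WT difference was -0.69 ± 0.12 (limma adjusted p = 0.0085).

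The 250 bases before the RefSeq start of Lrat and of Vipr2 are shown because these genes have the largest differences among those that held without overlap. They were read from RefSeq (GRCm38.p6), chr3:82903975-82904224 on the minus strand for Lrat and chr12:116077476-116077725 on the plus strand for Vipr2, and are printed 5′ to 3′ along the gene. Capitals mark the GC box (GGGCGG or CCGCCC) and the TATA box (TATAA or TTATA).
Lrat: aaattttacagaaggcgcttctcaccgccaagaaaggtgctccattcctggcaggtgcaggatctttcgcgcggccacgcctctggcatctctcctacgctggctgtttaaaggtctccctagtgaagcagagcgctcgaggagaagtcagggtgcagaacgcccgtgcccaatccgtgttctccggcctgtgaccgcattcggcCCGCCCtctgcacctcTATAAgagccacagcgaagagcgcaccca
Vipr2: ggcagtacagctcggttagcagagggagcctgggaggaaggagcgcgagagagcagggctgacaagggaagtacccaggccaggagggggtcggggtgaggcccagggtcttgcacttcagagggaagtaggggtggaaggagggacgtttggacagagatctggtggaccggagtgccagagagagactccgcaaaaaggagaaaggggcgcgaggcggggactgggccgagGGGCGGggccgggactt
Lrat had a GC box that starts 45 bases and a TATA box that starts 29 bases before the gene start, and Vipr2 had a GC box that starts 17 bases before it. Of 32851 RefSeq promoters of this length, 32.7% held a GC box and 22.8% a TATA box on either strand. The letters CAGAC or GTCTG, the core bound by SMAD proteins, were in 42.2% of promoters, and AGGTCA or TGACCT, a half-site of nuclear receptors, in 14.0%. Neither was in these windows, which says only that these letters are absent there. GC made up 59.2% of the Lrat window and 65.2% of the Vipr2 window.

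The other measured genes of retinoid storage and response did not follow Lrat strain by strain. Of 16 genes, 6 were lower and 0 higher between the sets, with a median difference of -0.06 against 0.01 over all genes, and Lrat alone held in all 3 prone strains. Rbp4, the plasma carrier of retinol, was lower in A/J (-0.70 ± 0.10) and AKR/J (-0.63 ± 0.10) and did not pass in C57BL/6J (-0.23 ± 0.12, limma adjusted p = 0.21). Aldh1a1, which oxidises retinal, was lower in A/J (-0.73 ± 0.08) and C57BL/6J (-0.65 ± 0.10), whereas AKR/J was at 0.06 ± 0.08. The retinoid X receptor gene Rxrg passed in C57BL/6J with -0.88 ± 0.18, and was at -0.40 in A/J and -0.15 in AKR/J.

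Tcf21, a transcription factor of lung mesenchyme and of lipid-storing fibroblasts, was lower in every prone strain. TG mice had 10.29, 10.18 and 9.78 in A/J, 10.15, 10.13 and 10.50 in AKR/J and 9.34 and 9.62 in C57BL/6J, against 11.10, 11.03 and 10.85 in 129, 10.59, 10.64 and 10.84 in BALB/cJ and 10.73, 10.32 and 10.44 in C3H. The prone strain means were all below the resistant ones, although the highest AKR/J mouse lay above the lowest C3H mice. The differences were -0.64 ± 0.12, -0.47 ± 0.12 and -1.25 ± 0.14 in A/J, AKR/J and C57BL/6J (limma adjusted p = 0.0012, 0.025 and 1.4e-05). Among WT mice C57BL/6J was lowest (10.51 and 10.27), with 10.99 in A/J, 11.25 in AKR/J and 10.86 to 11.39 in the resistant strains. The WT difference of Tcf21 was -0.25 ± 0.14 (limma adjusted p = 0.56). The test of TG minus WT did not pass (-0.53 ± 0.16, limma adjusted p = 0.15). Of the 11 measured fibroblast and pericyte markers, 2 (Tcf21 and Pdgfra, a receptor of alveolar fibroblasts) were lower and 0 higher between the sets, with a median difference of -0.11, and Tcf21 alone held. Prone TG mice had a mean level of these markers of 10.63 to 10.82, and resistant TG mice one of 10.73 to 10.91. Its part in the Lrat and Tcf21 results was not tested, and in these whole lung samples fewer cells of a type and less RNA per cell cannot be told apart.

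Several genes known from neurons and synapses, measured here in lung, were among those that held downward, a grouping made after their values were seen. Gria1, a subunit of AMPA glutamate receptors, was 7.24, 7.74 and 7.32 in A/J, 7.70, 7.78 and 8.17 in AKR/J and 6.87 and 6.77 in C57BL/6J. The resistant mice were at 8.59, 9.04 and 8.73 in 129, 8.01, 8.24 and 8.49 in BALB/cJ, and 8.93, 8.49 and 9.36 in C3H, so that a single AKR/J mouse reached the BALB/cJ range. Gria1 differed by -1.22 ± 0.16 in A/J, -0.77 ± 0.16 in AKR/J and -1.83 ± 0.19 in C57BL/6J (limma adjusted p = 5.8e-05, 0.0093 and 7.1e-06), and by -0.48 ± 0.19 in WT mice (adjusted p = 0.33). Amph, a membrane-curvature protein of endocytosis, differed by -0.56 ± 0.11, -0.52 ± 0.11 and -0.96 ± 0.13 in the same order of strains. All strain means of Gria1 and Amph were apart between the sets.

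For Cntn1, Bche and Glrb the resistant strains were not alike. Cntn1, a cell adhesion molecule of axons, was 6.18 to 7.10 in prone TG mice, 8.81 to 9.15 in 129 and 7.13 to 8.26 in C3H, but 6.41 to 6.51 in BALB/cJ, inside the prone range. Bche, which encodes butyrylcholinesterase, was 6.63 to 8.15 in prone TG mice, 9.22 to 9.79 in 129, 8.12 to 9.31 in C3H and 7.92 to 8.13 in BALB/cJ. Glrb, the beta subunit of the glycine receptor, was 5.46 to 5.98 in prone TG mice and 5.62 to 5.66 in BALB/cJ, against 6.84 to 7.10 in 129 and 6.75 to 6.89 in C3H. BALB/cJ therefore resembled the prone strains in all 3 genes, and the mean of the resistant set was carried by 129 and C3H. On every array the lower quartile was at least 6.243, above the prone and BALB/cJ values of Glrb and the lowest prone value of Cntn1 (6.18). The WT differences passed as well, at -1.92 ± 0.22 for Cntn1, -0.92 ± 0.20 for Bche and -0.94 ± 0.10 for Glrb (limma adjusted p = 0.00032, 0.048 and 0.0003). In RefSeq order 3 measured genes lay between Bche and Sptssb, a subunit of serine palmitoyltransferase that also held (-0.70 ± 0.11). Sptssb was 5.56 to 6.21 in prone TG mice, under the lower quartile of every array, so the size of its difference is uncertain. BALB/cJ TG mice were at 6.08 to 6.33, against 7.07 to 7.56 in 129 and 6.14 to 6.84 in C3H.

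Genes known from airway epithelium and cilia, also grouped after their values were seen, were among those that held downward. Sox2, a transcription factor of airway epithelium, measured 8.42, 8.48 and 8.45 in A/J, 8.13, 8.15 and 8.17 in AKR/J and 8.41 and 8.21 in C57BL/6J, against 8.43 to 8.92 in the 9 resistant mice, where A/J overlapped the lowest BALB/cJ mouse. The WT mice had 9.13 in A/J, 7.95 in AKR/J, 8.55 and 8.70 in C57BL/6J, 8.22 in 129, 8.28 in BALB/cJ and 8.44 in C3H. The TG difference of -0.40 ± 0.05 and the WT difference of 0.26 ± 0.07 (adjusted p = 0.15) differed from each other by -0.65 ± 0.09 (limma adjusted p = 0.0092). Wdr63, a dynein chain of motile cilia, and Pifo, a gene of cilium formation, also held, at -0.50 ± 0.11 and -0.31 ± 0.05, with WT differences of 0.08 and 0.12 that did not pass. Wdr63 passed narrowly in each strain (limma adjusted p = 0.046, 0.031 and 0.046 in A/J, AKR/J and C57BL/6J). With 1 mouse left out, Sox2 held in 15, Pifo in 11 and Wdr63 in 3 of 17 fits. None of them held without 129, and Wdr63 did not hold without C3H either.

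Of the 10 measured ciliated cell markers, 3 were lower between the sets (Tekt4 at -0.33 ± 0.06, Cfap44 at -0.29 ± 0.08 and Dnah9 at -0.28 ± 0.07) and 0 higher, and 0 held in all 3 strains. The call of Cfap44 was lost without any of 10 single mice of 17 and that of Dnah9 without C57BL/6J mouse 2 (-0.26, adjusted p = 0.055). The median difference of the list was -0.23 in A/J, -0.23 in AKR/J and -0.12 in C57BL/6J, and 0.27 in WT mice. Its part in the Sox2, Wdr63 and Pifo results was not tested.

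Upward, the largest difference that held belonged to the uncharacterised gene AI506816. It measured 9.42, 9.41 and 11.18 in A/J, 9.87, 9.64 and 8.82 in AKR/J and 10.92 and 10.70 in C57BL/6J, but 4.59, 5.16 and 5.51 in 129, 6.87, 7.29 and 6.02 in BALB/cJ and 10.25, 9.44 and 9.93 in C3H. C3H was thus as high as the prone strains, and the difference of 2.86 ± 0.25 (limma adjusted p = 4.5e-06) was one from 129 and BALB/cJ. The 129 values lay under the lower quartile of every array, so the size of the difference from them is uncertain. The WT difference was 3.25 ± 0.40, with the same strains low. The TG and WT differences of AI506816 differed by -0.39 ± 0.48 (limma adjusted p = 0.85).

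Nrcam, a neuronal cell adhesion molecule, and Sp6, a zinc-finger transcription factor of epithelia, were higher in every prone strain. Nrcam was 10.70, 10.33 and 10.45 in A/J, 9.73, 10.01 and 9.96 in AKR/J and 10.05 ± 0.08 in C57BL/6J (mean and SD of 2 mice), against 8.01, 8.40 and 8.67 in 129, 9.69, 9.76 and 9.27 in BALB/cJ and 9.72, 9.85 and 9.72 in C3H. AKR/J overlapped C3H and BALB/cJ, and 129 stood lowest. The differences were 1.26 ± 0.12, 0.67 ± 0.12 and 0.82 ± 0.15 in A/J, AKR/J and C57BL/6J (limma adjusted p = 3.9e-06, 0.0047 and 0.0011). The WT difference was 0.08 ± 0.15, which differed from the TG value by 0.83 ± 0.17 (limma adjusted p = 0.04).

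Sp6 did not overlap between the sets, with 7.19, 7.32 and 7.40 in A/J, 7.61, 7.17 and 7.19 in AKR/J, 7.14 and 7.21 in C57BL/6J, and 6.77 to 7.01 in the 9 resistant mice. Its differences were 0.43 ± 0.08, 0.46 ± 0.08 and 0.31 ± 0.09 (limma adjusted p = 0.0011, 0.0024 and 0.03), and the WT difference of 0.66 ± 0.09 passed too. Chil1, a secreted chitinase-like protein of macrophages and epithelium, was 13.82 to 14.21 in prone TG mice, 13.01 to 13.22 in 129, 13.64 to 13.91 in BALB/cJ and 13.43 to 13.90 in C3H. Its TG difference (0.41 ± 0.07) was smaller than its WT difference (1.13 ± 0.11), by -0.72 ± 0.12 (limma adjusted p = 0.031), where the 129 WT mouse stood lowest at 11.32.

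**Figure D3:**
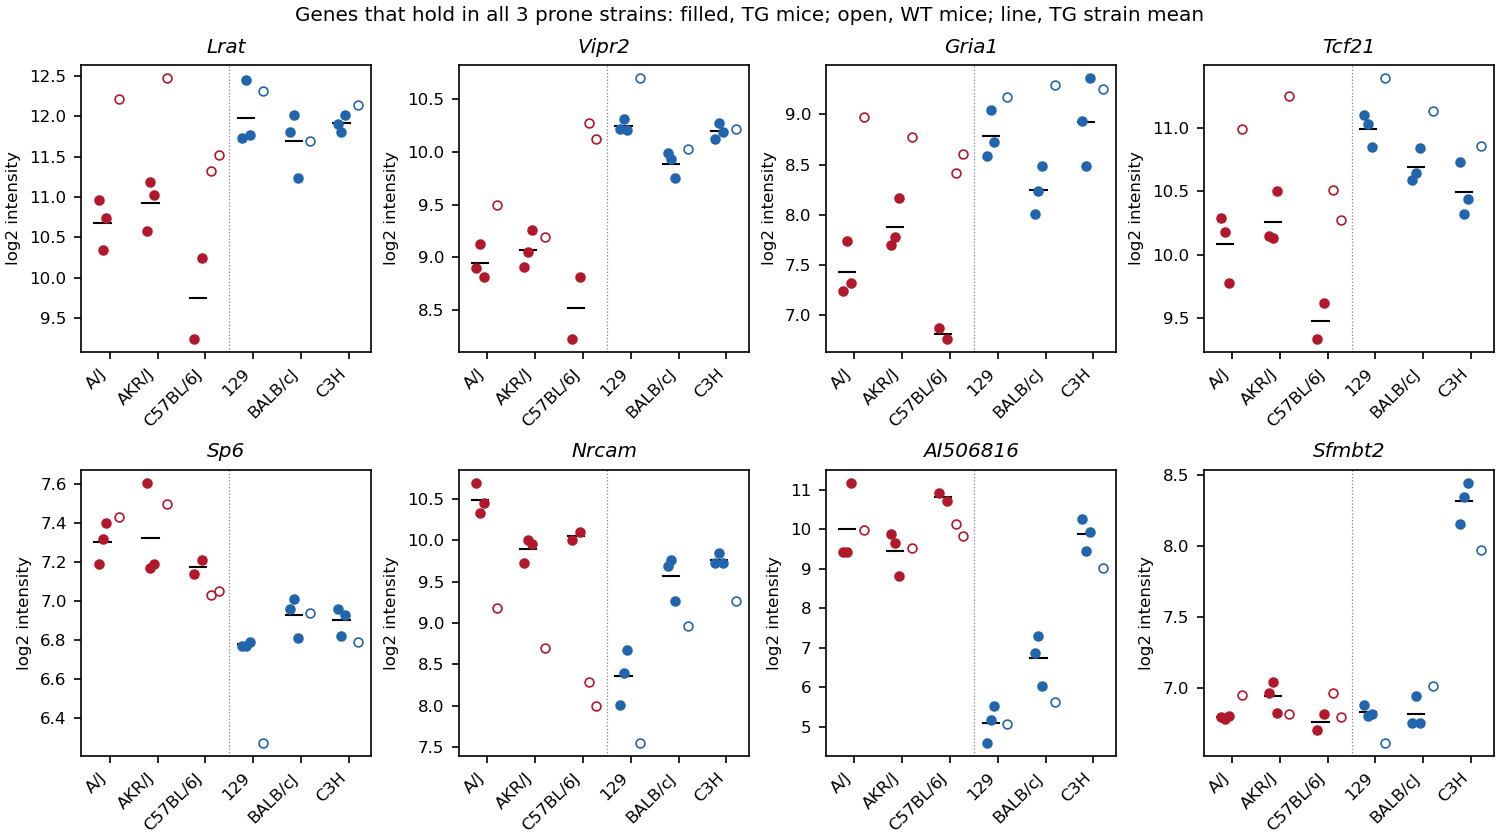
Log2 intensity of 8 genes that held in all 3 prone strains, by strain, with TG mice as filled points, WT mice as open points, TG strain means as black lines, prone strains in red and resistant strains in blue. Lrat, Vipr2 and Sp6 separate the 8 prone from the 9 resistant TG mice, whereas in AI506816 C3H lies with the prone strains and in Sfmbt2 C3H alone lies apart.

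The remaining genes that held had smaller differences. Upward, these were Syt15 (0.62 ± 0.07), 4833420G17Rik (0.58 ± 0.06), the Rab regulator Tbc1d2 (0.51 ± 0.08), the R-spondin receptor Lgr6 (0.45 ± 0.07), 3110053B16Rik (0.33 ± 0.06), the potassium channel Kcnk2 (0.29 ± 0.05), the tRNA methyltransferase subunit Trmt6 (0.28 ± 0.04) and the ubiquitin ligase Sh3rf3 (0.28 ± 0.05). Arfgef2, Cyb5r3 and the heparan sulfate proteoglycan Sdc3 were higher by 0.25 to 0.27. In Lgr6 the BALB/cJ mean (8.99) lay above those of A/J (8.80) and AKR/J (8.82), and the gene did not hold without 129 or without C3H. With 1 mouse left out, 3110053B16Rik held in 3, Lgr6 in 5, Kcnk2 in 6 and Tbc1d2 in 8 of 17 fits. The small nucleolar RNA host gene Gas5 held upward by its brightest probe set (0.38 ± 0.04), the one read here for each gene, but its other probe sets gave -0.38, -0.05 and -0.05 and the mean of all gave -0.03. It is counted among the genes that held upward by that probe set alone. The probe sets of Arfgef2, Esco1 and Mtmr9, the other genes that held with several probe sets, had the same sign.

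Downward, the RNase P RNA Rpph1 (-0.58 ± 0.07) and Morn4 (-0.56 ± 0.08) were followed, after Wdr63, by genes with differences from -0.49 (Sfmbt2) to -0.20 (Cacna1d). Among these were the medium-chain acyl-CoA dehydrogenase Acadm (-0.28 ± 0.04), the histone methyltransferase Ezh1 (-0.25 ± 0.04) and the ribosomal protein gene Rps20 (-0.23 ± 0.03), none of which overlapped between the sets. In Rps20 the 8 prone mice lay at 12.68 to 12.86 and the 9 resistant mice at 12.90 to 13.09, a small difference that was nearly the same in A/J (-0.25), AKR/J (-0.23) and C57BL/6J (-0.21). Prone mice had Acadm at 10.19 to 10.52 and resistant mice had it at 10.58 to 10.78. Of 12 measured genes of fatty acid oxidation, 4 were lower and 0 higher between the sets with a median of -0.07, and Acadm alone held; Acaa2 (-0.19 ± 0.06), Hadh (-0.14 ± 0.04) and Hadhb (-0.13 ± 0.04) passed near the threshold (limma adjusted p = 0.042, 0.044 and 0.029), and they lost their call in 12, 14 and 8 of 17 fits with 1 mouse left out (adjusted p = 0.1, 0.085 and 0.076 without C57BL/6J mouse 1). Hoxb5, a homeobox gene of lung mesenchyme (-0.38 ± 0.05), and Vgll3, a cofactor of TEAD transcription factors (-0.37 ± 0.07), belonged to the same group.

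A gene could hold because a single resistant strain stood apart. Sfmbt2, a Polycomb group gene chosen here after its values were seen, was 6.70 to 7.04 in the 8 prone mice, 6.80 to 6.88 in 129 and 6.75 to 6.94 in BALB/cJ, but 8.16, 8.35 and 8.45 in C3H. With C3H left out its difference went from -0.49 to 0.01, and those of Nme7 and Ppp1r21 went from -0.40 to 0.08 and from -0.24 to 0.01. The number of genes that held was 16 with 129 left out, 120 without BALB/cJ and 49 without C3H, of which 13, 47 and 30 were among the 49 that held with all strains. Without 129 the set difference of Syt15 (0.20), Chil1 (0.19), Cyb5r3 (0.08) and Sptssb (-0.40) lost its call (limma adjusted p = 0.18, 0.16, 0.19 and 0.066). Of the 49, 6 held with each resistant strain left out in turn: Lrat, Vipr2, Gria1, Amph, Glrb and 4833420G17Rik. BALB/cJ nevertheless lay within the prone range in Glrb, as given above, and in 4833420G17Rik (9.51 to 9.79 against 9.43 to 9.82). When each of the 17 TG mice was left out in turn, 9 of the 49 held in every fit, namely Vipr2, Cntn1, Glrb, Sfmbt2, AI506816, Nrcam, Syt15, Trmt6 and 4833420G17Rik. Lrat held in 16 of these 17 fits. Just inside the rule were Rnf144a, Nme7 and Hoxb5, with a largest adjusted p of 0.0482, 0.0491 and 0.0491 over the 3 strains, and just outside were Fam107a, Adamdec1 and Mamdc2 with 0.0504, 0.0511 and 0.0517.

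The WT mice, whose levels the TG comparison did not use, gave the same measure without the transgene. Limma called 100 genes between prone and resistant WT mice (0.741%), and 15 of the 49 genes were among them in the same direction, with 0 called in the opposite one. These were AI506816, 4833420G17Rik, Chil1, Sp6 and, by its brightest probe set alone, Gas5 upward and Cntn1, Glrb, Bche, Vipr2, Morn4, Pcdhb3, Mtmr9, Ppp1r21, 1810037I17Rik and Cacna1d downward. The WT difference had the TG sign in 42 of 49. The count of 15 went to 6 without the C57BL/6J WT mice, 6 without the 129 WT mouse, 10 without AKR/J (1 opposite), 10 without C3H, 13 without A/J and 19 without BALB/cJ. The TG and WT differences themselves differed in 64 of all genes (0.474%), and in 4 of the 49: Lrat, Nrcam, Chil1 and Sox2. The 49 were chosen by their TG values, which are part of this test, so these shares cannot be compared. A WT difference that did not pass is no sign that the WT sets were alike, since 5 strains had 1 WT mouse.

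In 17 called genes (0.126%) the 8 prone and 9 resistant TG mice did not overlap, 10 upward (0.0741%) and 7 downward (0.0519%), and 7 of these (0.0519%) also held in all 3 strains: Lrat, Vipr2, Acadm, Ezh1, Rps20, Sp6 and Sh3rf3. The others missed the rule in at least 1 strain. Nlrp1a and Nlrp1c-ps, by its symbol a pseudogene, belong to a family of inflammasome sensors, with 1 measured gene between them in RefSeq order. Both passed in A/J, while the difference of Nlrp1a was largest in AKR/J and that of Nlrp1c-ps in C57BL/6J. Nlrp1a was 6.15, 5.43 and 5.80 in A/J, 6.12, 6.70 and 6.10 in AKR/J, 5.57 and 5.57 in C57BL/6J and 5.06 to 5.34 in resistant mice. It differed by 0.60 ± 0.13 in A/J, 1.12 ± 0.13 in AKR/J and 0.38 ± 0.15 in C57BL/6J, where it did not pass (limma adjusted p = 0.11). Nlrp1c-ps was higher by 2.17 ± 0.25 in C57BL/6J and 1.30 ± 0.21 in A/J, and by 0.26 ± 0.21 in AKR/J, where it did not pass (adjusted p = 0.48). Copies of this family share sequence, so which copy each probe set measured is uncertain. The list of 13 inflammasome and interleukin-1 genes had 3 higher and 0 lower, the third being Il1rn (0.36 ± 0.11), the interleukin-1 receptor antagonist, which passed in A/J alone and whose set difference lost its call in 12 of 17 fits with 1 mouse left out (0.34, adjusted p = 0.12 without C57BL/6J mouse 1). Nlrp1a lay under the lower quartile of every array in all TG mice, prone and resistant, except AKR/J mouse 2 (6.70). For Nlrp1c-ps the resistant TG mice lay at 5.88 to 6.26, around or under the lower quartiles of the arrays (6.243 to 6.349). The sizes of these differences are therefore uncertain. Without the transgene Nlrp1a was 7.47 in A/J, 7.23 in AKR/J, 5.45 and 5.66 in C57BL/6J, and 4.92 to 5.23 in the resistant mice, a WT difference of 1.65 ± 0.15 (limma adjusted p = 3.4e-05).

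Col18a1, a basement membrane collagen, did not overlap between the sets (9.10 to 9.45 against 8.86 to 9.09) and passed in A/J (0.31 ± 0.06) and C57BL/6J (0.33 ± 0.07) but not in AKR/J (0.13 ± 0.06). Smaller differences without overlap that did not hold in every strain were seen for 1810055G02Rik, the microtubule-associated gene Map1a, Mcfd2, which serves protein export from the endoplasmic reticulum, the sorting nexin Snx9 and Dnajc25, at 0.14 to 0.26 upward. Dnajc25 lost its call without C57BL/6J mouse 1 (0.12, adjusted p = 0.075). Rfesd (-0.29 ± 0.06) and Sqor, a mitochondrial sulfide oxidase (-0.20 ± 0.04), were the downward ones.

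The largest differences that did not hold showed which strain was missing. Lama1, a laminin chain of basement membranes, was 8.85, 8.55 and 9.08 in A/J and 9.72 and 9.18 in C57BL/6J, but 7.38, 7.37 and 7.38 in AKR/J, at the level of the resistant mice (7.34 to 7.84). AKR/J differed from the other 2 prone strains by -1.76 ± 0.13 (limma adjusted p = 2.1e-07). Ublcp1 was high in C57BL/6J, with 9.77 and 9.45 in TG and 9.46 and 9.73 in WT mice, against 4.91 to 7.16 in the other TG mice. Chil3, a chitinase-like protein of alveolar macrophages, was 5.34 to 7.10 in A/J and 7.26 to 8.08 in AKR/J, but 10.04 ± 0.05 (SD, n = 2) in C57BL/6J, within the resistant range of 7.93 to 10.31.

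AKR/J was also the missing strain in 1810010H24Rik, where its difference was -0.16 ± 0.11 against -1.08 ± 0.11 in A/J and -1.49 ± 0.13 in C57BL/6J. The guanylate-binding protein Gbp2b did not pass in AKR/J either (-0.57 ± 0.22, adjusted p = 0.13), with -1.13 ± 0.22 in A/J and -2.17 ± 0.26 in C57BL/6J.

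Genes of dividing cells were higher in A/J and C57BL/6J and not in AKR/J. Of 23 measured cell cycle genes, 21 were higher and 0 lower between the sets, but 0 held in all 3 strains. The median difference was 1.12 in A/J and 0.65 in C57BL/6J, and -0.02 in AKR/J, against 0.03, -0.02 and 0.03 over all genes. By strain, 23 of 23 were higher in A/J, 18 in C57BL/6J (with 1 lower) and 0 in AKR/J, and 22 of 23 were lower in AKR/J than in the other 2 prone strains. Top2a, the topoisomerase of dividing cells, was 9.51, 9.01 and 9.23 in A/J and 8.66 and 8.58 in C57BL/6J, but 7.37, 7.39 and 7.03 in AKR/J, level with or just below the resistant mice (7.04 to 7.94). Bub1, a mitotic checkpoint kinase, differed by 1.66 ± 0.18, 1.17 ± 0.21 and 0.10 ± 0.18 in A/J, C57BL/6J and AKR/J. In the same order Kif11, a spindle motor, differed by 1.67 ± 0.14, 1.04 ± 0.17 and -0.10 ± 0.14, and Cdk1, the kinase that starts mitosis, by 1.68 ± 0.14, 0.91 ± 0.16 and -0.14 ± 0.14. Between the WT sets 0 of the 23 genes passed, with a median of 0.06. The WT strains were not alike, however. The mean level of the list in WT mice was 7.84 and 7.75 in C57BL/6J, 7.57 in A/J and 7.18 in AKR/J. It was 7.28 in 129, 7.56 in BALB/cJ and 7.52 in C3H. C57BL/6J was thus highest and AKR/J lowest among WT mice, against 8.29 and 8.14 in C57BL/6J TG mice and 7.47 to 7.70 in AKR/J TG mice. Bub1 was about as high in C57BL/6J WT mice (8.04 and 8.19) as in C57BL/6J TG mice (8.13 and 7.87).

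Collagens are the main fibres of the extracellular matrix, which accumulates in fibrosis. Of 20 measured collagen genes, 6 were higher and 1, Col13a1, lower between the sets, and 0 held. The median difference was 0.25 in A/J (11 of 20 higher), 0.21 in C57BL/6J (7 higher, 1 lower) and 0.01 in AKR/J (1 higher). Col1a1, a chain of the main fibrillar collagen, was 12.19, 11.80 and 11.98 in A/J, 12.24 and 11.92 in C57BL/6J, and 11.16, 11.39 and 11.09 in AKR/J, against 11.04 to 11.53 in the resistant mice. AKR/J thus lay within the resistant range, and below the other 2 prone strains by -0.82 ± 0.10 (limma adjusted p = 2.8e-05). In prone WT mice Col1a1 was 10.62 in A/J, 10.04 in AKR/J, and 10.94 and 10.79 in C57BL/6J. Resistant WT mice had 10.40 in 129, 10.69 in BALB/cJ and 10.36 in C3H, so the single AKR/J WT mouse was lowest without the transgene. The WT difference between the sets was 0.03 ± 0.11. Col5a2 and Col3a1 were higher in A/J (0.70 ± 0.09 and 0.50 ± 0.08) and C57BL/6J (0.81 ± 0.11 and 0.52 ± 0.09), with -0.26 ± 0.09 and -0.24 ± 0.08 in AKR/J, where neither passed.

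Of 14 matricellular and elastic fibre genes, 7 were higher and 1 lower, with a median of 0.44 in A/J, 0.47 in C57BL/6J and -0.05 in AKR/J. Ltbp2, a latent TGF-β binding protein of elastic fibres, led with 0.98 ± 0.13 in A/J, 1.53 ± 0.16 in C57BL/6J and 0.09 ± 0.13 in AKR/J. Tnc, the matrix glycoprotein tenascin C, passed in A/J alone (1.00 ± 0.17), and Tgfbi, a TGF-β-induced matrix protein, in A/J (0.63 ± 0.11) and C57BL/6J (0.83 ± 0.13). Thbs2, a thrombospondin, was higher in A/J (0.82 ± 0.07) and C57BL/6J (0.62 ± 0.08) and lower in AKR/J (-0.24 ± 0.07, limma adjusted p = 0.042), so the prone strains lay on opposite sides of the resistant mean.

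Proteases had 5 of 12 higher and 0 lower. Ctsk, a collagen-degrading cathepsin, passed in A/J alone (1.53 ± 0.19), Adamts12 and the membrane metalloproteinase Mmp14 in A/J (0.71 ± 0.10 and 0.63 ± 0.12) and C57BL/6J (1.11 ± 0.12 and 0.72 ± 0.14), and Adamts1 in C57BL/6J (0.64 ± 0.13). Without C57BL/6J mouse 1 the set calls of Ctsk (0.46), Mmp14 (0.28) and Adamts1 (0.30) were lost (adjusted p = 0.074, 0.082 and 0.059). In collagen processing 3 of 8 were higher and 0 lower: Loxl4, a crosslinking oxidase (0.31 ± 0.05), Bmp1, which cleaves procollagen (0.26 ± 0.07), and P3h1, a proline hydroxylase (0.22 ± 0.04). Bmp1 lost its call without C57BL/6J mouse 1 (0.25, adjusted p = 0.092), and in 11 of 17 such fits in all.

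Of 13 measured ligands, receptors and activators, 3 were higher and 1 lower between the sets, and 0 held; Tgfb1 was not analysed here. In the single strains, 7 were higher and 2 lower in C57BL/6J, 2 higher and 1 lower in A/J, and 0 higher and 3 lower in AKR/J. The ligand Tgfb3 was higher in C57BL/6J (0.80 ± 0.12) and lower in AKR/J (-0.51 ± 0.10), a gene named after its values were seen. Itgb6, the integrin chain that releases active TGF-β1 on epithelium, was 12.02 to 12.26 in A/J, 12.32 and 12.33 in C57BL/6J, 11.77 to 11.98 in AKR/J and 11.43 to 11.99 in resistant mice. It was higher by 0.47 ± 0.09 in A/J and 0.65 ± 0.11 in C57BL/6J, and by 0.21 ± 0.09 in AKR/J, where it did not pass (limma adjusted p = 0.18). Itgav, which pairs with it, was higher in C57BL/6J (0.49 ± 0.06) and A/J (0.19 ± 0.05), and Acvrl1, an endothelial receptor, was lower in both (-0.43 ± 0.07 and -0.22 ± 0.06). The receptor Acvr1 passed in C57BL/6J (0.35 ± 0.06), and its set difference lost its call without C57BL/6J mouse 1 (0.14, adjusted p = 0.078). Of 13 SMADs and feedback inhibitors, limma called 0 between the sets (4 at an unadjusted p under 0.05), with a median of 0.04.

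**Figure D4:**
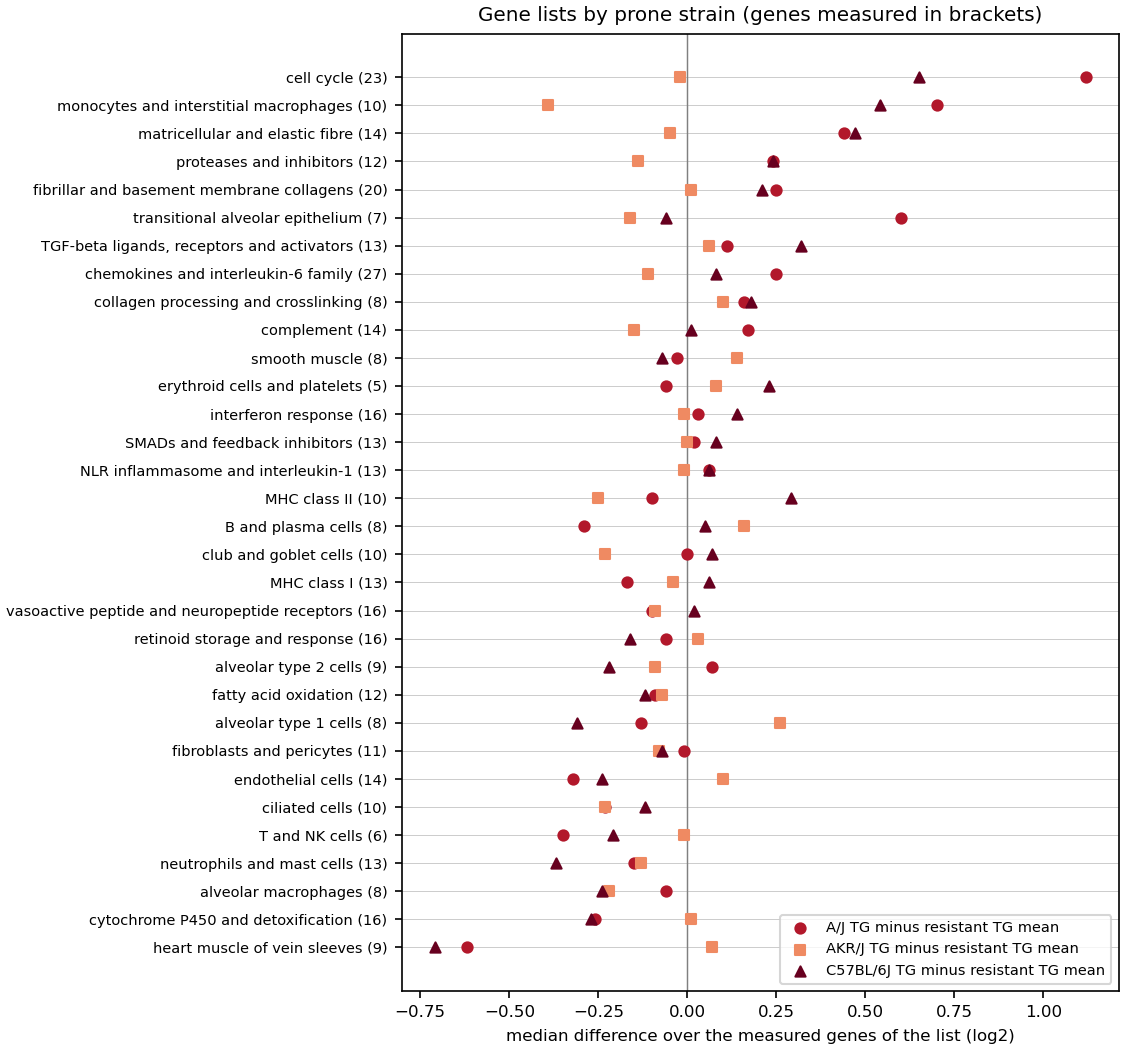
Median difference over the measured genes of each list, on the log2 scale, for each prone TG strain minus the mean of the 3 resistant TG strains, with the number of genes measured in brackets. For the cell cycle A/J lies at 1.12, C57BL/6J at 0.65 and AKR/J at -0.02, and for monocytes and interstitial macrophages at 0.70, 0.54 and -0.39.

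Of 10 measured markers of monocytes and interstitial macrophages, 5 were higher and 2 lower between the sets, and the median difference was 0.70 in A/J, 0.54 in C57BL/6J and -0.39 in AKR/J. Ms4a7 was 8.43, 8.65 and 8.49 in A/J, 9.11 and 9.15 in C57BL/6J and 6.86, 6.77 and 6.81 in AKR/J, which lay below all resistant mice (7.03 to 8.21). AKR/J was lower than the other 2 prone strains by -2.01 ± 0.11 (limma adjusted p = 9.3e-09). The complement subunit genes C1qa and C1qb, made by macrophages, were higher in A/J (1.14 ± 0.09 and 1.12 ± 0.11) and C57BL/6J (0.80 ± 0.11 and 0.84 ± 0.13), with -0.37 ± 0.09 and -0.30 ± 0.11 in AKR/J, where C1qa passed as lower (limma adjusted p = 0.024) and C1qb did not (0.11). Between the WT sets C1qa differed by 0.39 ± 0.11 and C1qb by 0.52 ± 0.13, which did not pass (limma adjusted p = 0.11 and 0.085). Their TG set differences were 0.53 and 0.55, and the test of TG minus WT did not pass (limma adjusted p = 0.78 and 0.97). Adgre4 (-0.70 ± 0.19) and Treml4 (-0.52 ± 0.13), genes of patrolling monocytes, were the downward ones of the list. Adgre4 lost its call without either C57BL/6J mouse, AKR/J mouse 2 or BALB/cJ mouse 2 (adjusted p = 0.069 without C57BL/6J mouse 1). The mean level of the list was 9.29 to 9.44 in A/J, 9.25 and 9.26 in C57BL/6J, 8.51 to 8.58 in AKR/J and 8.77 to 9.25 in resistant mice. Its part in the matrix and cell cycle results was not tested.

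Detoxifying enzymes of airway and alveolar epithelium and of endothelium were lower in A/J and C57BL/6J. Of 16 measured, 10 were lower and 0 higher between the sets, 0 held, and 10 were higher in AKR/J than in the other 2 prone strains. Cyp4b1, a lung cytochrome P450, was 10.86, 11.26 and 11.38 in A/J, 10.37 and 10.86 in C57BL/6J, 12.22, 12.15 and 12.37 in AKR/J and 11.94 to 12.37 in resistant mice. Gsta3, a glutathione transferase, differed by -1.24 ± 0.14 in A/J and -1.57 ± 0.17 in C57BL/6J, and by 0.36 ± 0.14 in AKR/J. Fmo2, the lung flavin monooxygenase, and Gstm1 were also lower in A/J (-0.89 ± 0.10 and -0.97 ± 0.11) and C57BL/6J (-0.82 ± 0.12 and -0.71 ± 0.13), whereas AKR/J was at 0.07 and 0.19. The WT differences of these 4 genes lay between 0.00 and 0.22, and the TG and WT differences differed for Cyp4b1 (-0.79 ± 0.15) and Gsta3 (-1.03 ± 0.20; limma adjusted p = 0.039 for each).

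Endothelial markers were lower in A/J and C57BL/6J as well. Of 14 measured, 6 were lower and 0 higher between the sets, and 11 were higher in AKR/J than in the other 2 prone strains. Ednrb, an endothelin receptor of alveolar capillaries, was -0.87 ± 0.10 in A/J, -1.34 ± 0.12 in C57BL/6J and 0.27 ± 0.10 in AKR/J, and Ramp2, an adrenomedullin receptor partner, -0.57 ± 0.06, -0.60 ± 0.07 and 0.08 ± 0.06. Gpihbp1, the capillary anchor of lipoprotein lipase, was lower in A/J (-0.53 ± 0.05) and C57BL/6J (-0.37 ± 0.06), and the tight junction gene Cldn5 by -0.35 ± 0.07 and -0.38 ± 0.08. Gpihbp1 was also lower between the WT sets (-0.29 ± 0.06, limma adjusted p = 0.041), against -0.26 ± 0.04 between the TG sets. The mean level of the list was 11.10 to 11.32 in A/J, 11.26 in both C57BL/6J mice, 11.54 to 11.67 in AKR/J and 11.38 to 11.65 in resistant mice.

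Of the 16 vasoactive and neuropeptide receptor genes, to which Vipr2, Ednrb and Ramp2 belong, 3 were higher and 4 lower, and Vipr2 alone held. Htr2b, a serotonin receptor, was the remaining lower one, with -0.95 ± 0.10 in AKR/J, -0.40 ± 0.10 in A/J and 0.09 ± 0.12 in C57BL/6J. Its WT difference was larger (-1.28 ± 0.12), and the TG and WT values differed by 0.87 ± 0.14 (limma adjusted p = 0.018). BALB/cJ, at 6.91 to 7.24, lay below the other resistant mice (7.79 to 8.51).

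Alveolar type 1 cell markers separated AKR/J from both other prone strains. AKR/J was higher than the resistant mean in 7 of 8 and higher than the other 2 prone strains in 8 of 8, while A/J was lower in 4 and C57BL/6J in 5. Ager, the receptor that marks these cells, was 13.54, 13.52 and 13.48 in AKR/J, 13.04, 13.17 and 13.01 in A/J, 12.69 and 12.76 in C57BL/6J and 13.11 to 13.47 in resistant mice, so that AKR/J stood above every resistant mouse and C57BL/6J below. The set difference of Ager (-0.15 ± 0.04) was a mean of opposite values, 0.26 ± 0.05 in AKR/J and -0.53 ± 0.06 in C57BL/6J, and turned to 0.04 with C57BL/6J left out. Clic5 and Vegfa had the same signs (0.20 and 0.23 in AKR/J, -0.53 and -0.32 in C57BL/6J), and Akap5 passed in AKR/J (0.48 ± 0.08) and in neither other strain. Ager and Clic5 lost their set calls without C57BL/6J mouse 1 (-0.14 each, adjusted p = 0.059 and 0.053), and Akap5 without C57BL/6J mouse 2 (0.21, adjusted p = 0.056). Of 9 alveolar type 2 cell markers, limma called 0 between the sets (3 at an unadjusted p under 0.05), and 4 were lower in C57BL/6J.

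Heart muscle genes, which the lung lobe carries in the muscle sleeves of its veins, were lower in A/J and C57BL/6J. Of 9 measured, 5 were lower and 0 higher between the sets, with a median of -0.62 in A/J, -0.71 in C57BL/6J and 0.07 in AKR/J. Myl7, an atrial myosin light chain, differed by -1.20 ± 0.19, -1.22 ± 0.22 and -0.10 ± 0.19, Myl4 by -0.86 ± 0.13, -1.14 ± 0.16 and 0.07 ± 0.13, and Myh6 by -0.79 ± 0.16, -1.09 ± 0.18 and 0.12 ± 0.16, in A/J, C57BL/6J and AKR/J. Actc1, cardiac actin, differed between the sets by -0.51 ± 0.14, and by -0.50 without C57BL/6J mouse 1, where the call was lost (adjusted p = 0.066). The mean level of the list was 8.98 to 9.16 in A/J and C57BL/6J, 9.67 to 9.85 in AKR/J and 9.10 to 10.19 in resistant mice. Its part in the other results was not tested.

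**Figure D5:**
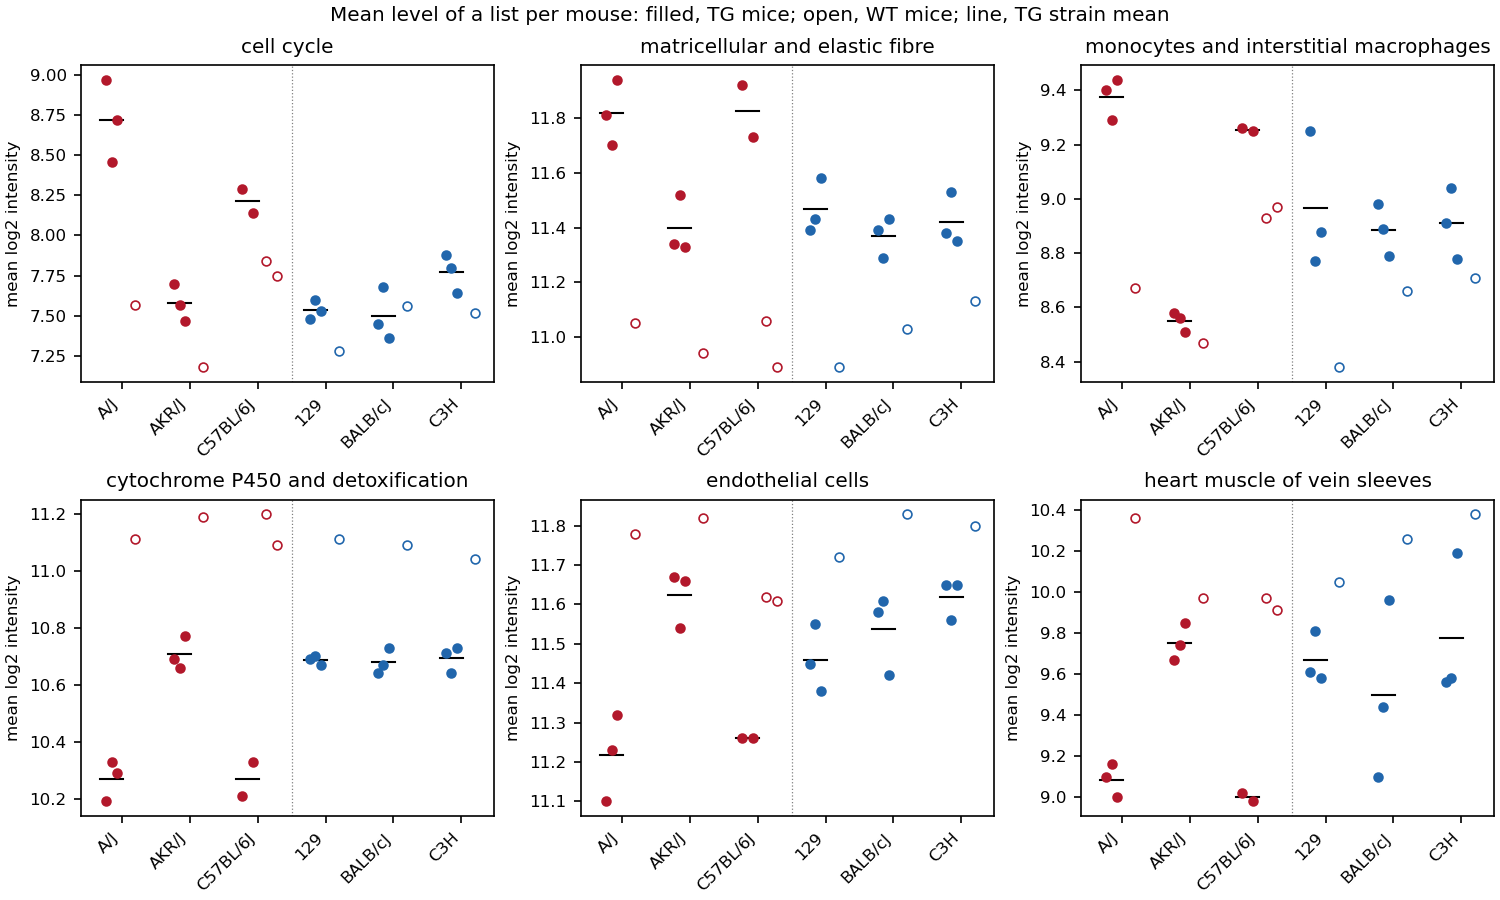
Mean log2 intensity over the measured genes of 6 lists in each mouse, by strain, with TG mice as filled points, WT mice as open points and TG strain means as black lines. In the detoxification panel the 5 A/J and C57BL/6J TG mice lie at 10.19 to 10.33, below AKR/J and all resistant TG mice at 10.64 to 10.77, and all WT mice lie at 11.04 and above.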

How the data were processed

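Per the labels' protocols, total RNA came from freshly taken lung by phenol extraction and column clean-up, and the Ambion WT Expression Kit and biotin were used for labelling. The deposited table was taken to hold log2 intensities because its values run from 3.41 to 14.75. No source used here gives the log base, summarisation, normalisation, software or build, and the main results use the table unscaled. The table, held in part, had 25285 probe sets, of which 1 with missing values was left out. Of the others, 14539 had 1 gene symbol in the platform annotation, 781 had several and 9964 were unnamed here. The probe set of highest mean over the 24 arrays stood for a gene with several (590 genes), which left 13499 genes, 13444 of them matched to RefSeq (GRCm38.p6) by Entrez identifier with 0 symbols changed.

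In R 4.3.3, two-sided limma models (version 3.58.1, lmFit with eBayes) were fitted to 12 strain and genotype means over all 24 arrays (12 residual degrees of freedom, median residual SD 0.104), which lends single WT mice the spread of the groups with replicates. The script was tested on simulated data. Python 3.11.15 with pandas 2.3.3 served for tables, and matplotlib 3.10.9 for plots. Array number limits the precision. Nothing in the labels says that mice came from separate litters, so the p-values measure the spread between these samples. Whether strain variants under a probe moved a value was not tested. Sex was not checked.

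Members and lists were chosen with earlier results of these data known. The genes named were every called gene without overlap, the 12 largest each way that held, the 4 largest each way that did not hold, and up to 4 called members of largest difference of a described list (where under 2 were called, those of largest difference). The other genes that held, and members of lists beyond these, were named after their values were seen. Alternatives were the 17 TG arrays alone, strain means or a random strain block as the unit, mice weighted equally, quantile normalisation, a filter on dim genes, the mean of probe sets, eBayes with trend and robust, array weights, the replicate block, an adjusted p of 0.01, and each TG mouse and each strain left out. Leaving out the WT mice of each strain was added after seeing the data.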

Additional observations from a re-analysis of the deposited data

Results flagged for a closer look

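In 12 of the 118 genes named or held, the prone minus resistant difference of TG mice differed from that of WT mice by the limma test of the difference (adjusted p under 0.05). TG minus WT, the values were -1.39 for Lrat, -1.09 for 1810010H24Rik, -1.03 for Gsta3, -0.95 for Nlrp1a, -0.79 for Cyp4b1, -0.72 for Chil1 and -0.65 for Sox2. They were 0.87 for Htr2b, 0.83 for Nrcam, 0.79 for Lama1, 0.63 for Itgb6 and 0.50 for Thbs2. In Nlrp1a, Chil1 and Htr2b the WT difference was the larger one, and the WT sets hold 4 and 3 mice.

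Single mice stood apart in 9 of 236 groups examined by Dixon's criterion, where chance gives about 1 in 20. C57BL/6J mouse 1 was lowest of the prone TG mice in Vipr2 (8.23, the next 8.81) and Cyb5r3 (13.06, the next 13.17) and highest in Lgr6 (9.37, the next 8.96). A/J mouse 2 was highest in Chil1 (14.21), and AKR/J mouse 3 was highest in Cntn1 (7.10, the next 6.53) and Actc1 (11.81, the next 11.13). Among resistant TG mice, BALB/cJ mouse 3 was lowest in Rbp4 (9.03), 129 mouse 3 lowest in Gpihbp1 (10.79) and 129 mouse 1 highest in Adgre4 (9.64, the next 8.52).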

How the results depend on the processing

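The 1503 calls between the TG sets went to 0 with strain means as the unit, 1 with strain as a random block, 743 at an adjusted p of 0.01 and 2335 without AKR/J, and to 965 (without C57BL/6J mouse 1) to 1628 (without A/J mouse 3) with 1 TG mouse left out. The other settings gave 1004 to 1556, or 2172 with array weights. The 49 genes that held went to 91 with array weights and 12 at 0.01, and with a strain left out to 146 (A/J), 692 (AKR/J), 167 (C57BL/6J), 16 (129) and 120 (BALB/cJ). With 1 mouse left out they ranged from 21 to 64, with 21 without AKR/J mouse 1 or C57BL/6J mouse 2, 23 without AKR/J mouse 2 and 25 without C57BL/6J mouse 1. The 17 genes without overlap went to 0 with strain means and 1 with the random block, to 62, 506, 80, 33, 119 and 73 without A/J, AKR/J, C57BL/6J, 129, BALB/cJ and C3H, and from 17 to 40 with 1 mouse left out (40 without AKR/J mouse 3, 33 without BALB/cJ mouse 3, 27 without C3H mouse 2 or C57BL/6J mouse 2). The 100 WT calls went to 193 with array weights and 42 at 0.01, and the 64 TG minus WT calls to 289 and 3. Fewer strains or mice to pass, or a stricter threshold, change such counts by construction; otherwise the cause was not tested.

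Same-numbered mice of different strains did not deviate together (correlations from -0.15 to 0.13, median -0.02), and the fit with the replicate block called 1233 genes with 36 that held, 34 of them among the 49, and 17 without overlap. The share of higher calls was 57.9%, with 52.2% for array weights and 50.7 to 60.5% over all settings other than strain means and the random block. Of 4005 values of named genes under an alternative, 3570 kept sign and side of the threshold, 430 kept the sign and lost the call, and 5 changed sign: Gas5 to -0.03 with the mean of its probe sets, Ager to 0.04 without C57BL/6J, and Nme7 to 0.08, Ppp1r21 to 0.01 and Sfmbt2 to 0.01 without C3H. The rule for genes that hold was not run with strain means, the random block or mice weighted equally. The last leaves it unchanged, since each resistant strain had 3 TG mice. The number of mice, and of WT mice above all, limits what small differences can show.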

Other observations

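Further lists divided the prone strains without a gene that held. Of 14 complement genes, 4 were higher and 1 lower between the TG sets. C4b, a complement component of the classical pathway, was higher in A/J (0.93) and C57BL/6J (0.70) and lower in AKR/J (-0.92), with a WT difference of 0.70 that passed too, and C7, of the terminal pathway, was lower between the sets (-0.42). Of 27 chemokine and interleukin-6 family genes, 3 were higher (Ccl7 and Ccl8 at 0.35 each and Cxcl16 at 0.22) and 1 lower, the lymphocyte attractant Ccl5 (-0.47), and 10 were lower in AKR/J than in the other 2 prone strains. Of 7 markers of transitional alveolar epithelium, 2 were higher between the sets (Sfn at 0.55 and Itgb6 at 0.44), and 6 were higher in A/J, with a median there of 0.60 against -0.06 in C57BL/6J and -0.16 in AKR/J. These genes were picked from their lists after their values were seen.

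Of 8 alveolar macrophage markers, 2 were lower (Chil3 and Fabp4, a fatty acid carrier, at -0.54) and 1 higher (Mrc1, the mannose receptor, at 0.19). Of 3 adipose markers, 1 was lower, again Fabp4, with 3 at an unadjusted p under 0.05 and a median of -0.36. Of 10 club and goblet cell markers 1 was lower, of 8 smooth muscle markers 1 higher, and of 6 T and NK cell markers 2 lower. Limma called 0 of 8 B and plasma cell genes (0 at an unadjusted p under 0.05), 0 of 13 neutrophil and mast cell genes (5) and 0 of 10 MHC class II genes (0), of which C57BL/6J was higher in 4, A/J in 1 and AKR/J in 1. The mean level of the neutrophil and mast cell list was 9.28 in 129 TG mouse 1, against 7.48 to 8.15 in the other TG mice. Its part in the absence of calls in that list was not tested. Interferon response genes had 1 of 16 higher and 1 lower, MHC class I genes 1 of 13 lower, and erythroid and platelet genes 1 of 5 higher.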
